A study of Homo sapiens with 24 samples.

Results

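The 56 genes described here encode the DNA replication machinery, and they were chosen by name from the list of proteins that copy the genome. No cut on their measured values was used, but the choice was made with earlier results of these data known. All 56 were found among the 22242 gene symbols on the arrays, 42 of them with a single probe, and where a gene had several probes the brightest over all arrays stood for it. They fell into 9 licensing genes, 15 helicase genes, 22 polymerase and fork enzyme genes, 5 nucleotide supply genes and 5 genes of fork protection and S phase control. Each of the 56 was well above background on all 24 arrays.

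The arrays came from A549 and H1975, both established human lung adenocarcinoma cell lines. Cells received 0.75 mg/ml Pirfenidone, an antifibrotic drug, or the respective volume of PBS, and were harvested after 6 h or 24 h. The resulting 8 groups were A549 with PBS for 6 h, A549 with Pirfenidone for 6 h, A549 with PBS for 24 h, A549 with Pirfenidone for 24 h, and the same 4 groups of H1975, with 3 samples in each. The sources used here do not say whether the samples of a group were separate cultures, so p-values measure the spread between these samples, which may be technical. Each sample was hybridized to its own one-color Agilent array, and its deposited array name carries a date. Arrays that share this date are called a run here, although what the date records is not stated. Replicates 1, 2 and 3 of A549 fell into runs 2, 3 and 1. In H1975 they fell into runs 3, 4 and 1, except with PBS at 6 h, where they fell into runs 1, 3 and 4. The arrays lay on 7 slides, told apart by the barcode in the array name. The end of that name was taken as the place on the slide. In both lines each combination of treatment and time always had the same place. A change with Pirfenidone or with time therefore cannot be told apart from an effect of place. A block for run or slide does not remove this.

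On each array 62.7% to 69.5% of probes exceeded background clearly, and none was saturated. All 24 arrays detected the epithelial markers KRT8, KRT18, KRT19, EPCAM and CDH1, and none detected the fibroblast markers COL3A1 and DCN or the endothelial marker KDR. Of the other fibroblast and endothelial markers, LUM was detected only in A549 and PDGFRB, PECAM1 and VWF only in H1975, while COL1A1 and CDH5 and the leukocyte markers CD14 and CD68 were detected on every array. The A549 arrays of run 1 at 24 h stood apart from the other pairs, and each comparison that uses them is also given without them. Their labels were taken as given and were not tested.

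Replication starts from origins that the origin recognition complex marks and that CDC6 and CDT1 load with the MCM helicase, a step called licensing. In S phase the kinase CDC7 with DBF4 starts the helicase together with CDC45 and the GINS complex, and polymerases with their sliding clamp then copy both strands from nucleotides made by enzymes such as ribonucleotide reductase. Transcription of many of these genes rises before S phase under E2F factors, which bind GC-rich promoter elements, and dividing tumor lines express the machinery in all cycling cells.

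The promoters of many members hold such elements, and a few are shown because the genes behind them moved together in the comparison described next, except ORC3, which is shown for contrast. The windows are from RefSeq on GRCh38.p14, run 5′ to 3′ on the gene's own strand, end before the gene start, and mark in capitals each match to TTTCCCGC or TTTGGCGC on either strand.
CDT1: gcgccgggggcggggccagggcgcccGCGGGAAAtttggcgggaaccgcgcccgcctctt
MCM6: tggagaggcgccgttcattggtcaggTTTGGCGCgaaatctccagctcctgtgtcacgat
GINS2: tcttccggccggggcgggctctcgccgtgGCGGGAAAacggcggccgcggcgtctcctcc
PCNA: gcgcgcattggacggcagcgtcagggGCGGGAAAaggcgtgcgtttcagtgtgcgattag
LIG1: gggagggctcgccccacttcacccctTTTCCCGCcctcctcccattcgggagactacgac
TYMS: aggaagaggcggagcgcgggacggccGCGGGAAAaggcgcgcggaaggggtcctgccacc
DTL: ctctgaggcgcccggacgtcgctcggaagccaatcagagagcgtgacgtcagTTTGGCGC
ORC3: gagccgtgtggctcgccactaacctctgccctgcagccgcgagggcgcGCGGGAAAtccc
They lie at chr16:88803728-88803787 on the plus strand for CDT1, chr2:135876500-135876559 on the minus strand for MCM6, chr16:85688955-85689014 on the minus strand for GINS2 and chr20:5126648-5126707 on the minus strand for PCNA. The others lie at chr19:48170425-48170484 on the minus strand for LIG1, chr18:657588-657647 on the plus strand for TYMS, chr1:212035688-212035747 on the plus strand for DTL and chr6:87590075-87590134 on the plus strand for ORC3. The match began 35 bases before the start in CDT1, 90 in MCM6, 31 in GINS2, 59 in PCNA, 114 in LIG1, 39 in TYMS, 8 in DTL and 12 in ORC3.

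In H1975 cells treated for 24 h, genes of every role fell with Pirfenidone. Of the 56 members, 33 passed the test, all of them lower, while 3.54% of all 16553 genes tested passed in that direction. A gene passed at a limma p of 0.05 or less after Benjamini-Hochberg adjustment over all probes, and changes are given on the log2 scale, where -1 is a 2-fold decrease. Both the test and a decrease of at least 2-fold were met by 11 members, against 1.06% of all genes. The median change of the 56 members was -0.80, against 0.02 over all probes. In 49 members every Pirfenidone array with a value lay below every PBS array (48 of them with a value on all 6 arrays), which held for 15.9% of all genes, and 55 members had a change below 0, against 46.1%. With the run as a block in the fit, 46 members passed, all lower, against 6.75% of all genes. The arrays measured RNA of whole cultures, so fewer cells in S phase and less RNA per cell cannot be told apart.

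**Figure D1:**
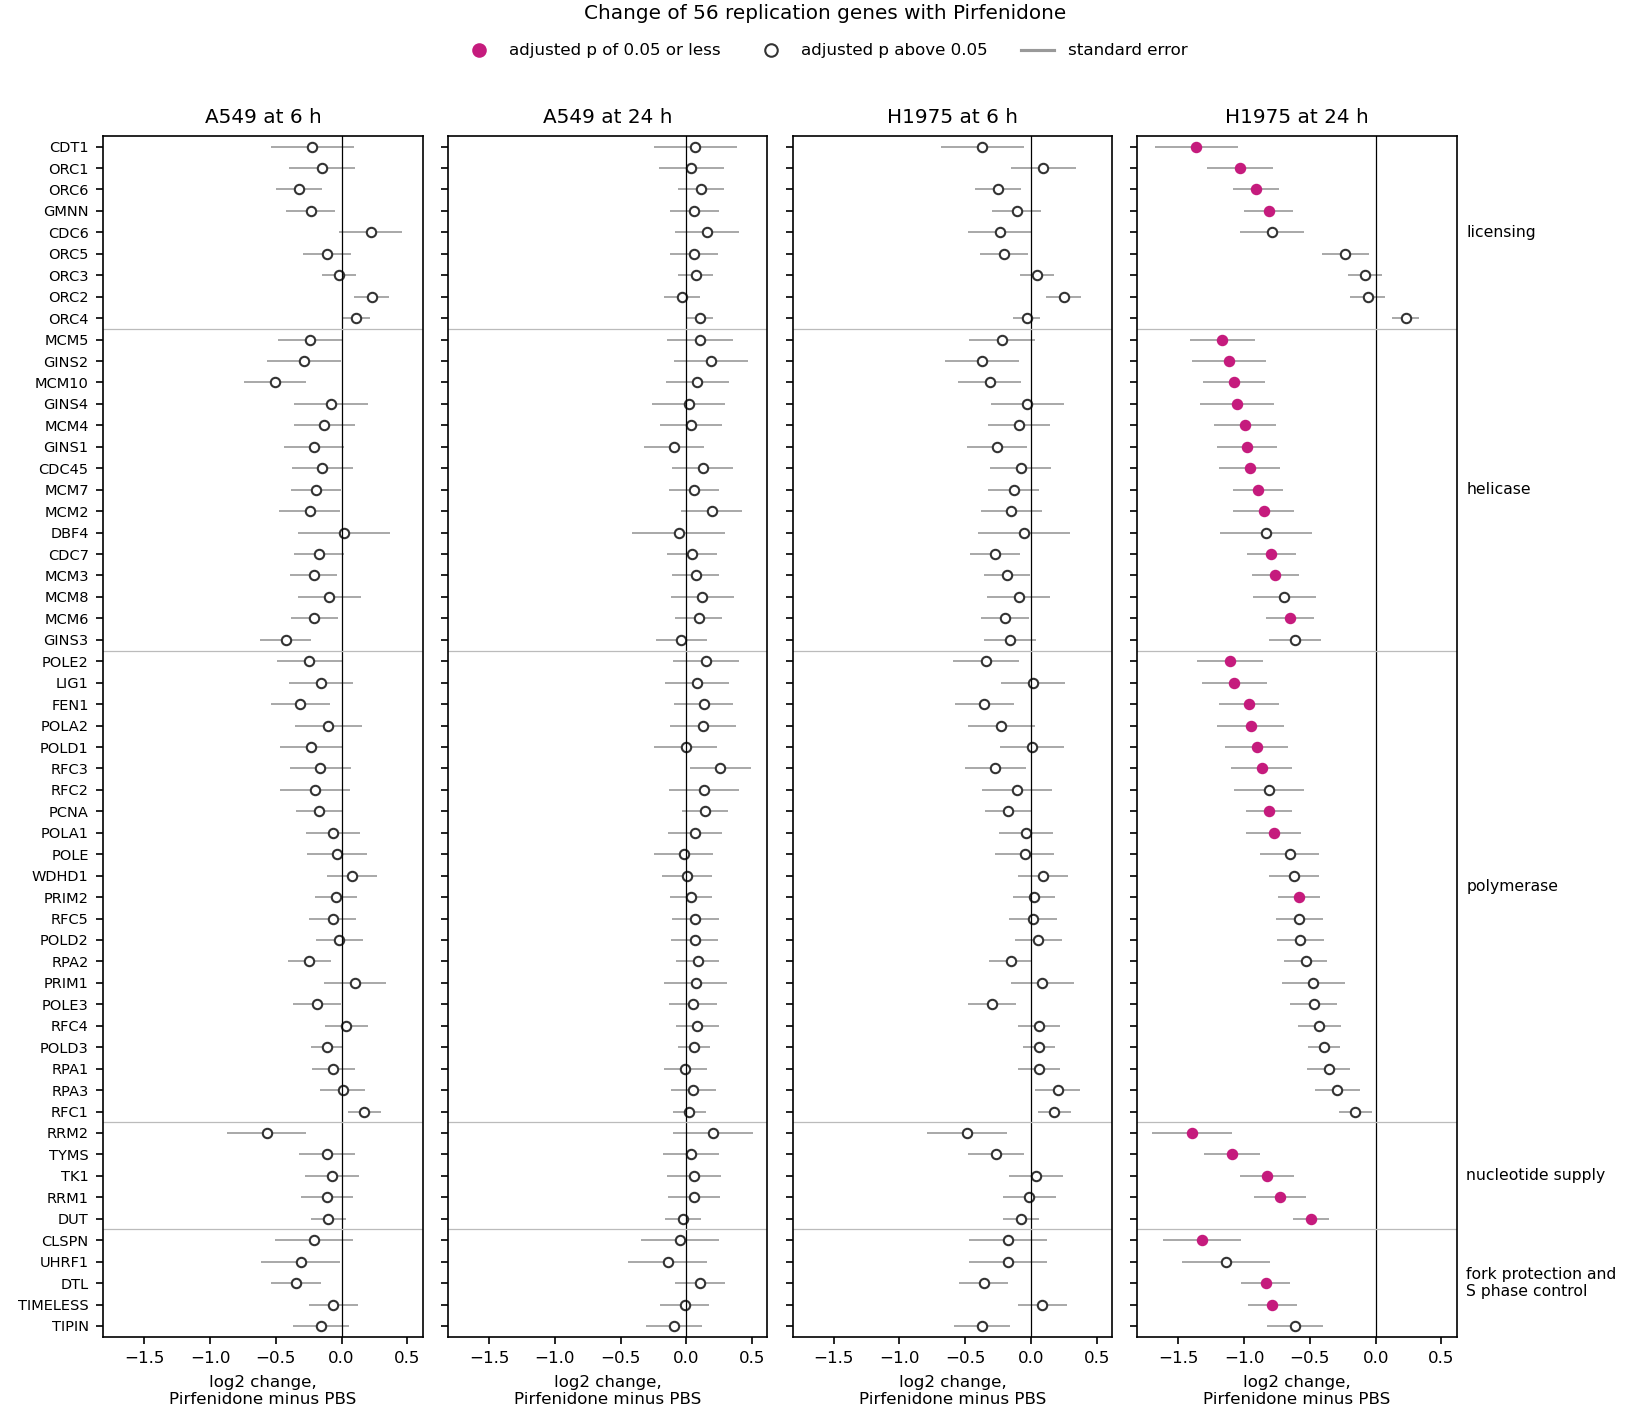
Log2 change of each of the 56 genes, Pirfenidone minus PBS, in 4 panels for A549 and H1975 at 6 h and 24 h, with genes on the vertical axis grouped by role and horizontal bars for the standard error of limma's fit (3 arrays against 3). Filled points passed the test. All 33 filled points lie in the H1975 panel at 24 h and to the left of 0, where ORC4 alone lies to the right.

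The size of the decrease at 24 h differed between runs, and the count of members that passed depended on single arrays. The median difference of the 56 genes between the Pirfenidone and the PBS array was -1.27 in run 1, -0.58 in run 3 (55 genes with a value) and -0.55 in run 4. Leaving out the run 1 Pirfenidone array, which is replicate 3, left 1 member passing, the thymidylate synthase gene TYMS, with a median change of -0.59. Leaving out H1975 PBS replicate 1, 2 or 3 at 24 h left 10, 16 or 8 members passing. Without both run 1 arrays at 24 h no member passed in limma (36 had an unadjusted p under 0.05, as had 23.5% of all genes in the fit of all arrays), and without both run 3 arrays only ORC6 and TYMS did. With the 6 arrays of this comparison fitted alone no member passed either (47 at an unadjusted p under 0.05), although 55 changes stayed below 0 in each of these fits. The share of all genes at that p was not counted in this fit or in the fit without both run 1 arrays. Nor was the share of all genes that passed counted for any of these reduced fits.

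Licensing genes split into those that fell and a set of origin recognition subunits with little change. In this role 4 of 9 genes passed, all lower, with a median change of -0.79. CDT1, which loads the MCM helicase onto origins, stood at 2.10, 1.93 and 2.92 in PBS replicates 1, 2 and 3 and at 1.07, 1.07 and 0.72 with Pirfenidone. These levels are log2 signals relative to the 75th percentile of the same array, so they compare one gene between arrays and not one gene with another. The groups did not overlap, and the change was -1.36 ± 0.32 (SE, limma adjusted p = 0.0177).

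ORC1, an ATPase subunit of the origin recognition complex whose level varies over the cell cycle, stood at -1.64, -1.68 and -1.51 with PBS and at -2.25, -2.41 and -3.28 with Pirfenidone. Its change was -1.03 ± 0.25 (limma adjusted p = 0.0208), with the run 1 Pirfenidone array far below the other arrays. ORC6, the smallest subunit of the complex, fell from 0.44, 0.33 and 0.26 to -0.30, -0.35 and -1.04, without overlap. That change was -0.91 ± 0.18 (limma adjusted p = 0.00743). GMNN, which encodes geminin, the inhibitor of CDT1, also fell, by 0.81 ± 0.19 (limma adjusted p = 0.0172).

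The other origin recognition subunits did not pass. Their changes were -0.06 for ORC2, -0.08 for ORC3, 0.23 for ORC4 and -0.23 for ORC5, and in each of these 4 genes the PBS and Pirfenidone arrays overlapped. CDC6, the second loading factor, had a change of -0.79 ± 0.24, with all Pirfenidone arrays below all PBS arrays, and missed the threshold at a limma adjusted p of 0.0584. It passed with the run as a block (limma adjusted p = 0.0217).

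Among the helicase genes 12 of 15 passed, all lower, with a median change of -0.89. All 6 subunits of the MCM2 to MCM7 ring fell, from -0.65 for MCM6 to -1.17 for MCM5. MCM5 stood at 2.57, 2.53 and 2.96 with PBS and at 1.76, 1.72 and 1.08 with Pirfenidone, without overlap, a change of -1.17 ± 0.25 (limma adjusted p = 0.0125). GINS2, a subunit of the complex that joins CDC45 to the ring, stood at 2.06, 2.15 and 2.57 with PBS and at 1.33, 1.33 and 0.76 with Pirfenidone. The groups were apart and the change was -1.12 ± 0.28 (limma adjusted p = 0.0259).

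MCM10, which helps to set up the active helicase, fell from -1.04, -0.93 and -1.24 to -1.80, -1.70 and -2.94, again with the lowest value in run 1, and its change was -1.08 ± 0.24 (limma adjusted p = 0.0139). CDC45 and the kinase gene CDC7 also fell, by 0.96 ± 0.23 and 0.79 ± 0.19. In the GINS complex 3 of 4 genes passed, and GINS3 did not (-0.61 ± 0.20, limma adjusted p = 0.0678). DBF4, the activator of CDC7, had a change of -0.83 ± 0.35 that did not pass (limma adjusted p = 0.169). The same was true of MCM8, a relative of the ring subunits with a role in repair (-0.70 ± 0.24, limma adjusted p = 0.0906).

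The polymerase and fork enzyme genes had the smallest share of members that passed, 9 of 22, and the smallest median change of the roles, -0.61. POLE2, the second subunit of the leading strand polymerase epsilon, stood at 0.04, 0.06 and -0.15 with PBS and at -0.79, -0.79 and -1.79 with Pirfenidone. The arrays did not overlap and the change was -1.11 ± 0.25 (limma adjusted p = 0.0158). LIG1, the ligase that joins Okazaki fragments, stood at 1.38, 1.34 and 1.71 with PBS and at 0.64, 0.52 and 0.05 with Pirfenidone, a change of -1.07 ± 0.24 (limma adjusted p = 0.016). FEN1, the nuclease that trims those fragments, fell from 0.89, 0.94 and 0.68 to 0.17, 0.30 and -0.87, by 0.96 ± 0.23 (limma adjusted p = 0.0184), and neither gene's groups overlapped.

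Within the complexes of this role the calls were uneven. In the polymerase alpha and primase complex 3 of 4 genes fell (POLA1, POLA2 and PRIM2), and in polymerases delta and epsilon 1 of 3 each did (POLD1 and POLE2). The sliding clamp gene PCNA fell by 0.81 ± 0.18 (limma adjusted p = 0.0135), from 3.41, 3.40 and 3.22 to 2.81, 2.85 and 1.93. Of the 5 subunits of its loader, replication factor C, only RFC3 passed (-0.87 ± 0.23), and the change of the others ran from -0.81 for RFC2 to -0.15 for RFC1. None of the 3 genes of replication protein A, which coats single-stranded DNA, passed (limma adjusted p from 0.0582 to 0.337), although RPA1 and RPA2 reached an unadjusted p under 0.05, and their changes were -0.36 for RPA1, -0.53 for RPA2 and -0.29 for RPA3.

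All 5 nucleotide supply genes fell, with a median change of -0.83. RRM2, the regulated small subunit of ribonucleotide reductase, had the largest change of the 56 members. It stood at 1.07, 0.92 and 0.84 with PBS and at -0.07, -0.25 and -1.05 with Pirfenidone, without overlap. Its change was -1.40 ± 0.30 (limma adjusted p = 0.0131), and the large subunit gene RRM1 fell by 0.72 ± 0.20 (limma adjusted p = 0.0367).

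TYMS, which makes thymidylate and is the target of fluoropyrimidines, stood at 3.88, 3.96 and 3.81 with PBS and at 3.16, 3.02 and 2.17 with Pirfenidone. The change was -1.10 ± 0.21 (limma adjusted p = 0.00752), and the groups did not overlap. TK1, the S phase thymidine kinase, stood at 5.67, 5.69 and 6.49 with PBS and at 5.19, 5.19 and 5.01 with Pirfenidone, so the PBS array of run 1 was the highest and the Pirfenidone array of run 1 the lowest. Its change was -0.83 ± 0.21 (limma adjusted p = 0.0243). DUT, which removes dUTP, had the smallest change of the role, -0.49 ± 0.14 (limma adjusted p = 0.0386).

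Of the genes of fork protection and S phase control 3 of 5 passed, all lower, with a median change of -0.84. CLSPN, which encodes claspin, the adaptor for checkpoint kinase activation at forks, stood at -3.07, -3.05 and -2.86 with PBS and at -4.20, -3.92 and -4.85 with Pirfenidone. The change was -1.32 ± 0.30 (limma adjusted p = 0.0148), without overlap. DTL, the adaptor that sends CDT1 for degradation in S phase, fell from 0.30, 0.17 and 0.56 to -0.33, -0.28 and -0.87, by 0.84 ± 0.19 (limma adjusted p = 0.0155).

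TIMELESS stood at 3.51, 3.55 and 4.09 with PBS and at 3.1, 3.0 and 2.7 with Pirfenidone, a change of -0.79 ± 0.19 (limma adjusted p = 0.0194), again without overlap. Its partner TIPIN in the fork protection complex had a change of -0.61 ± 0.21 and did not pass (limma adjusted p = 0.0917). UHRF1, which carries DNA methylation through replication, had a change of -1.14 ± 0.33 at a limma adjusted p of 0.0513, fitted without Pirfenidone replicate 1 because its spot was marked as an outlier.

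**Figure D2:**
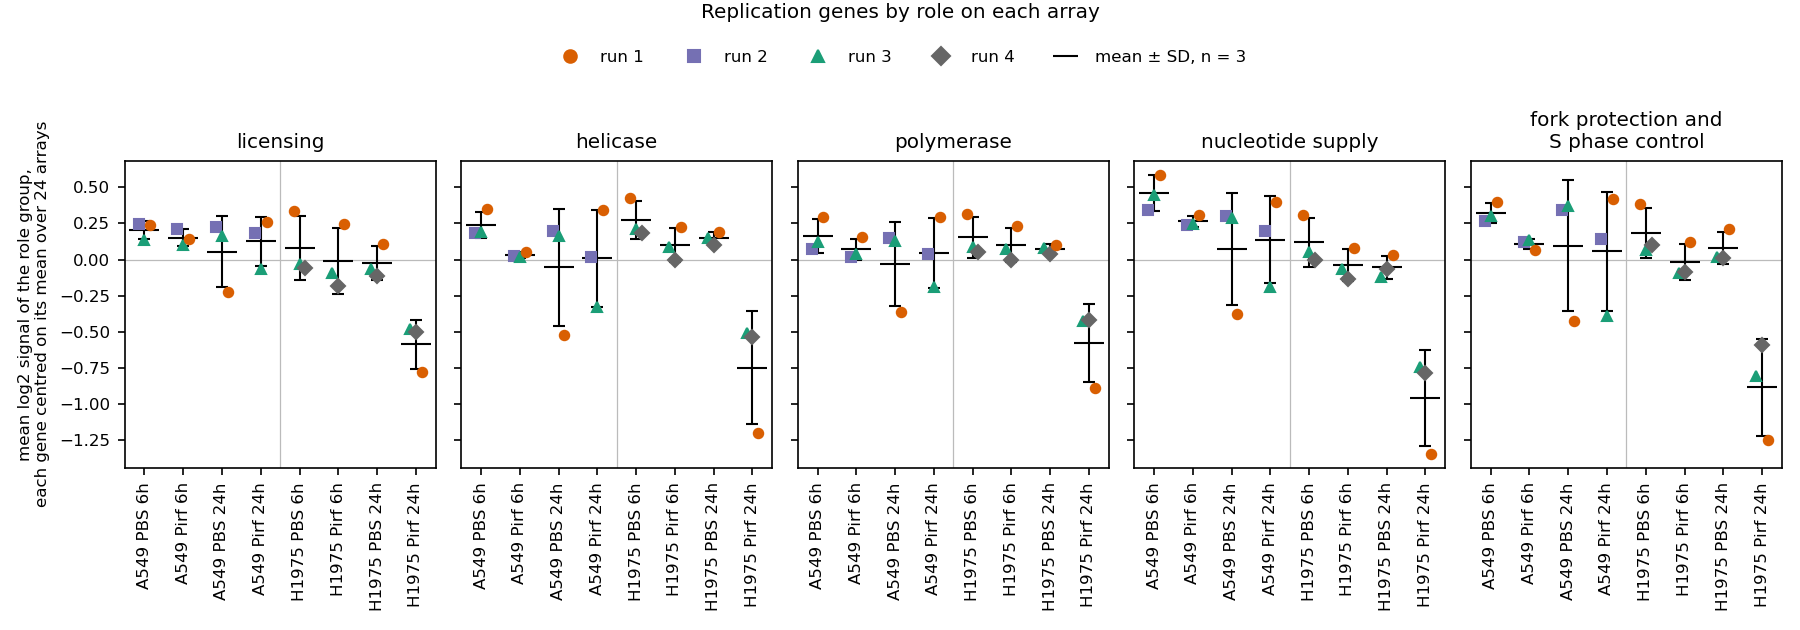
Mean log2 signal of each role group on each of the 24 arrays, with every gene centered on its own mean over the arrays and 1 panel per role; points are arrays, symbols mark the run, and bars show mean ± SD (n = 3). The H1975 Pirfenidone group at 24 h has the lowest mean in every panel, with run 1 at the bottom, and the A549 PBS array of run 1 at 24 h lies below the other A549 PBS arrays.

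The A549 arrays at 24 h did not give one direction. None of the 56 members passed (0.0121% of all genes did) and none reached an unadjusted p under 0.05 (0.834% of all genes), with a median change of 0.06 and 44 changes above 0. The members ran opposite ways by run, with a median difference of 0.71 in run 1, -0.13 in run 2 and -0.40 in run 3. In run 1, 55 members were higher with Pirfenidone, while 50 were lower in run 2 and 52 in run 3.

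RRM2 shows the pattern. It stood at 1.24, 1.26 and -0.09 in A549 PBS replicates 1, 2 and 3 and at 1.04, 0.63 and 1.35 with Pirfenidone, so the run 1 arrays (replicate 3) were the lowest with PBS and the highest with Pirfenidone. MCM5 stood at 2.60, 2.64 and 1.81 with PBS and at 2.39, 2.21 and 2.77 with Pirfenidone, in the same arrangement. CLSPN stood at -2.49, -2.50 and -3.60 with PBS and at -2.63, -3.67 and -2.43 with Pirfenidone, and here the run 3 difference of -1.17 was as large in size as the run 1 difference of 1.17. Without the run 1 pair, 55 of 56 members had a change below 0, against 52.8% of all genes, and the median was -0.26. In that fit 7 members reached an unadjusted p under 0.05, against 8.68% of all genes, and 8 did with the run as a block, against 16.7%. None passed, against 0.0785% of all genes.

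**Figure D3:**
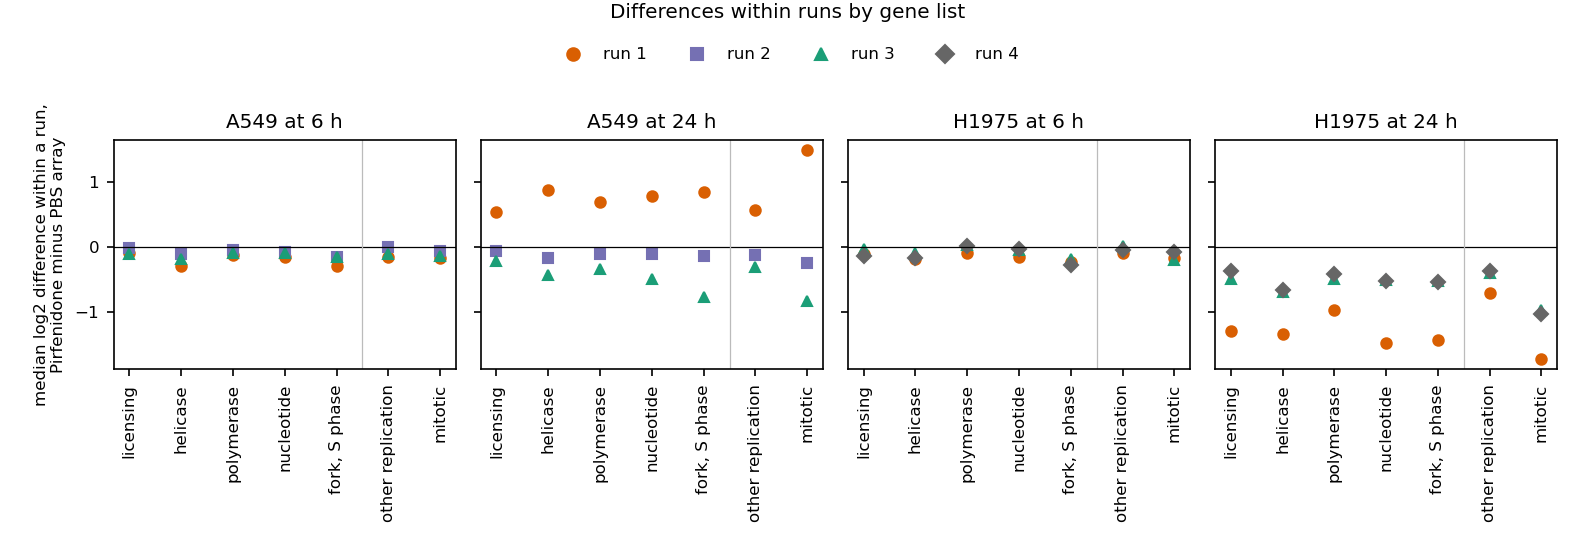
Median log2 difference between the Pirfenidone and the PBS array of the same run, by gene list, in 4 panels for line and time; each point is 1 run, and the 2 lists to the right of the gray line are the other replication genes and the mitotic genes. At 24 h the H1975 points all lie below 0, and the A549 points of run 1 lie above 0 with those of runs 2 and 3 below it.

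At 6 h neither line gave a member that passed. In A549, where 0.121% of all genes passed as lower, 47 members had a change below 0, against 53.5% of all genes, and the median was -0.15. All Pirfenidone arrays lay below all PBS arrays in 19 members, against 8.90% of all genes, among them RRM2 at 1.40, 1.72 and 1.78 with PBS and 1.1, 1.09 and 1.0 with Pirfenidone. The unadjusted p was under 0.05 for 6.49% of all genes and, among the members, for MCM10 (-0.51 ± 0.24) and GINS3 (-0.43 ± 0.20), whose limma adjusted p values were 0.821 and 0.797. The run medians were -0.21, -0.08 and -0.11 in runs 1, 2 and 3, so the A549 arrays of run 1 ran the same way as the others at this time.

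In H1975 at 6 h 39 members had a change below 0, against 41.3% of all genes, with a median of -0.11 against 0.05 over all probes, and no member reached an unadjusted p under 0.05 (11.8% of all genes did, and 0.393% passed as lower). The groups were apart with Pirfenidone lower in 6 members (CDC7, GINS1, POLE2, POLE3, FEN1 and TYMS), against 7.67% of all genes, and with Pirfenidone higher in 1, RFC1, against 11.3%. RRM2 again had the most negative change, -0.48 ± 0.30, with overlapping arrays (1.80, 1.58 and 1.21 with PBS and 1.13, 0.75 and 1.26 with Pirfenidone). These values follow replicate numbers, which fell into different runs. Within runs RRM2 went from 1.80 to 1.26 (run 1), 1.58 to 1.13 (run 3) and 1.21 to 0.75 (run 4). The members' mean level, each gene centered over all arrays, went from 0.36 to 0.21, 0.10 to 0.02 and 0.07 to -0.05. With the run as a block RRM2 did not pass either (limma adjusted p = 0.494).

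The difference between lines in the change at 24 h, H1975 minus A549, was tested in the same fit and uses the same arrays as the comparisons within lines. No member passed (0.0483% of all genes did as lower), although 43 members reached an unadjusted p under 0.05, against 13.1% of all genes. With the slide as a random block 15 members passed, all lower, against 1.48% of all genes. The median difference was -0.86, and ORC6 came closest at -1.02 ± 0.25 (limma adjusted p = 0.0989). RRM2 had the most negative difference, -1.60 ± 0.43 (limma adjusted p = 0.13). Without the A549 run 1 pair the median difference was -0.50 and 16 members reached an unadjusted p under 0.05, against 7.16% of all genes in that fit. At 6 h no member passed or reached an unadjusted p under 0.05, against 0.0362% and 2.89% of all genes.

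The difference between times, 24 h minus 6 h, had a median of -0.65 in H1975 and 0.17 in A549. In H1975 no member passed (0.0121% of all genes did as lower) and 32 reached an unadjusted p under 0.05, against 6.39% of all genes, with TIMELESS closest at -0.87 ± 0.26 (limma adjusted p = 0.519). In A549 none passed and none reached an unadjusted p under 0.05, against 0.0302% and 3.10% of all genes. Without the run 1 pair the A549 median was -0.13, so its sign turned, and again none reached an unadjusted p under 0.05.

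In PBS alone the lines differed in some members and not in a common direction. The members passed less often than all genes did, at both times and in both directions. This also held without the A549 run 1 array. The shares were not tested against each other. At 6 h, 9 members were higher in H1975 and 11 lower, against 31.3% and 29.5% of all genes. At 24 h, 10 were higher and 8 lower, against 32.4% and 28.8%. Without the A549 run 1 array 9 were higher and 12 lower at 24 h, against 31.0% and 27.7%. CDC45 then no longer passed, and GINS4, POLA1, POLD1 and TK1 passed as lower. With all arrays a total of 17 members passed at both times, each in the same direction.

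RFC1, the large subunit of the clamp loader, was the clearest of those higher in H1975. Its PBS levels at 6 h were 0.25, 0.41 and 0.34 in A549 and 1.29, 1.39 and 1.29 in H1975, and at 24 h 0.48, 0.46 and 0.29 against 1.62, 1.44 and 1.16. The difference was 1.0 ± 0.12 at both times. UHRF1 (0.86 at 6 h and 1.19 at 24 h), DBF4 (0.93 and 1.13), GINS3 (0.73 and 0.90), POLD2 (0.74 and 0.90), RFC2, RFC4, MCM2 and CDC45 were also higher in H1975 at both times. RPA3 passed at 24 h only.

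CDC6 was lower in H1975, with PBS levels at 6 h of -2.70, -3.07 and -2.81 in A549 and -3.53, -4.28 and -4.08 in H1975. The difference was -1.10 ± 0.24 at 6 h (limma adjusted p = 0.00066) and -1.02 ± 0.24 at 24 h (limma adjusted p = 0.00133). GINS1 (-1.01 and -0.94), TIPIN (-0.89 and -0.90), RFC3 (-0.86 and -0.80), MCM10 (-0.76 and -0.77), LIG1 (-1.17 and -0.73), RFC5 and POLD3 were lower at both times too. At 24 h LIG1 levels overlapped, and the A549 PBS array of run 1 stood at 1.54 against 2.61 and 2.47 in the others. POLD1, TK1 and TYMS passed at 6 h only. Within the clamp loader, RFC1, RFC2 and RFC4 were thus higher and RFC3 and RFC5 lower in H1975 than in A549.

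**Figure D4:**
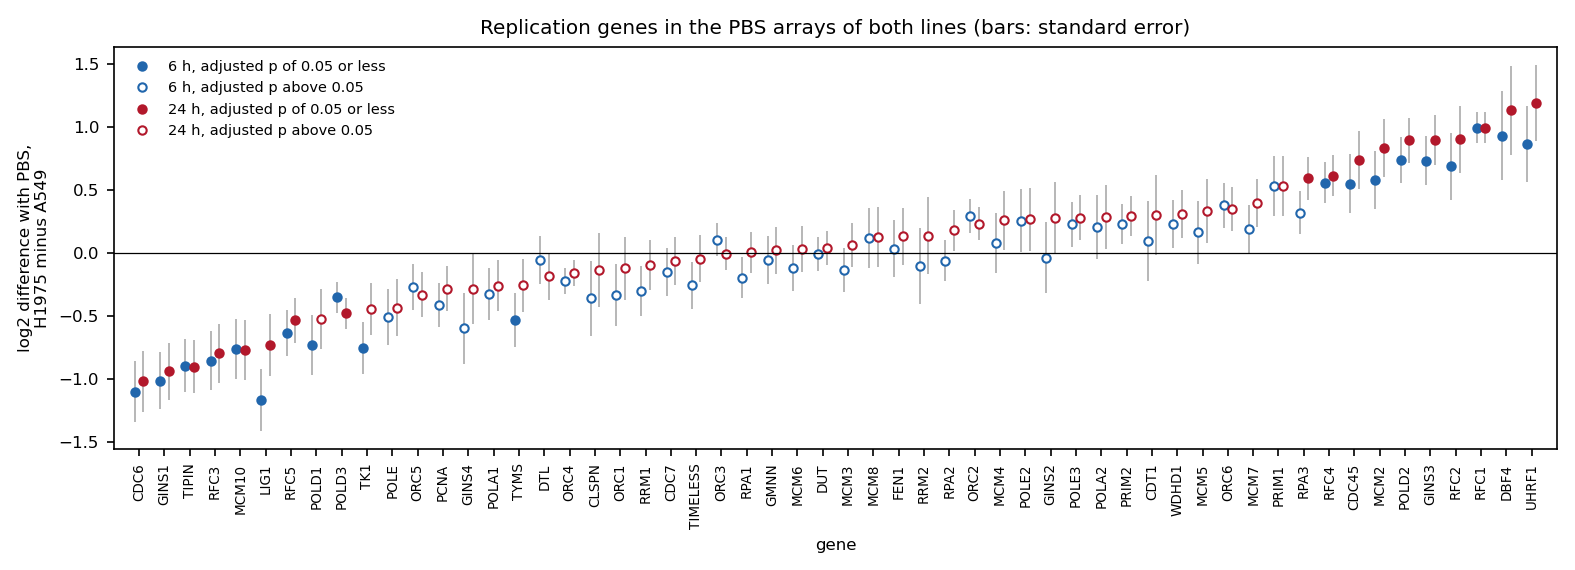
Log2 difference between H1975 and A549 in PBS arrays for each of the 56 genes, ordered by the difference at 24 h, with blue for 6 h, red for 24 h, filled points for genes that passed and bars for the standard error (3 arrays against 3). Differences run from -1.17 for LIG1 at 6 h to 1.19 for UHRF1 at 24 h.

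Time in PBS gave no member that passed in either line, against 0.0906% of all genes in A549 and 0.755% in H1975. In A549 53 members were lower at 24 h than at 6 h, against 45.0% of all genes, with a median of -0.24, and 3 reached an unadjusted p under 0.05 (ORC6, RRM1 and RRM2), against 8.83% of all genes. Without the A549 array of run 1, 36 members were lower, against 47.6% of all genes, with a median of -0.05, and ORC2 alone reached an unadjusted p under 0.05 (0.31 ± 0.13), against 4.30%. The mean level of the members, each gene centered on its mean over all arrays, went from 0.34 at 6 h to -0.39 at 24 h in run 1, from 0.17 to 0.21 in run 2 and from 0.19 to 0.18 in run 3. In H1975 46 were lower, against 42.5% of all genes, with a median of -0.11, and ORC6 alone reached that p, against 11.5%. With all arrays RRM2 had the most negative change with time in both lines, -0.83 ± 0.30 in A549 and -0.59 ± 0.30 in H1975 (limma adjusted p = 0.461 and 0.533).

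Genes that act around the fork but are no members were described as a separate list. Of 30 such genes 8 fell in H1975 at 24 h, against 3.54% of all genes. None rose, and the median change was -0.48. With the run as a block 11 passed as lower, against 6.75% of all genes, and 1, POLD4, as higher, against 7.67%. Those that fell included TICRR. Among the others were ATAD5 and DSCC1 of clamp unloading and loading, CHAF1B, ASF1B and NASP, which handle new histones, and DTYMK of thymidylate supply. ASF1B had the largest change, -1.19 ± 0.28 (limma adjusted p = 0.0176). RRM2B, the p53-responsive counterpart of RRM2, had a change of 0.18 ± 0.17, and POLD4, the small subunit of polymerase delta, one of 0.61 ± 0.19, and neither passed (limma adjusted p = 0.597 and 0.061) without the block. A list of 20 mitotic genes, set beside the members, fell in all 20, against 3.54% of all genes, with a median of -1.27. Its run medians at 24 h were -1.73, -0.98 and -1.03 in H1975 (runs 1, 3 and 4). In A549 they were 1.48, -0.26 and -0.83 (runs 1, 2 and 3). The sizes of the lists' changes were not tested against each other.

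The promoters, taken as 250 bases before to 50 after the start, were on file in RefSeq for 50 of the 56 members. Those of MCM4, MCM5, GINS4, POLD3, RPA2 and RPA3 were not used here. TTTCCCGC or TTTGGCGC on either strand stood in 24 of 50 members (48%), against 2.75% of the 27305 genes with a promoter. Matches on opposite strands can overlap, as those of TTTGGCGC do in TIPIN. The share was 17 of 30 among members that fell in H1975 at 24 h and 7 of 20 among the others. By role it was 8 of 12 helicase genes, 4 of 9 licensing genes, 6 of 19 polymerase genes, 2 of 5 nucleotide supply genes and 4 of 5 genes of fork protection and S phase control.

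The element TTTGAA, known as CHR in promoters of mitotic genes, stood in 4 of 50 members (8%), against 18.2% of all genes and 12 of 17 mitotic genes. CCAAT stood in 30 of 50 members (60%), against 39.7% of all genes. The 13 members that fell and have none of the E2F-type letters in this window include RRM2, ORC1, ORC6, MCM10, FEN1, TK1 and TIMELESS, and ORC3, printed above, has them and did not pass. A match describes letters only and does not show binding.

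**Figure D5:**
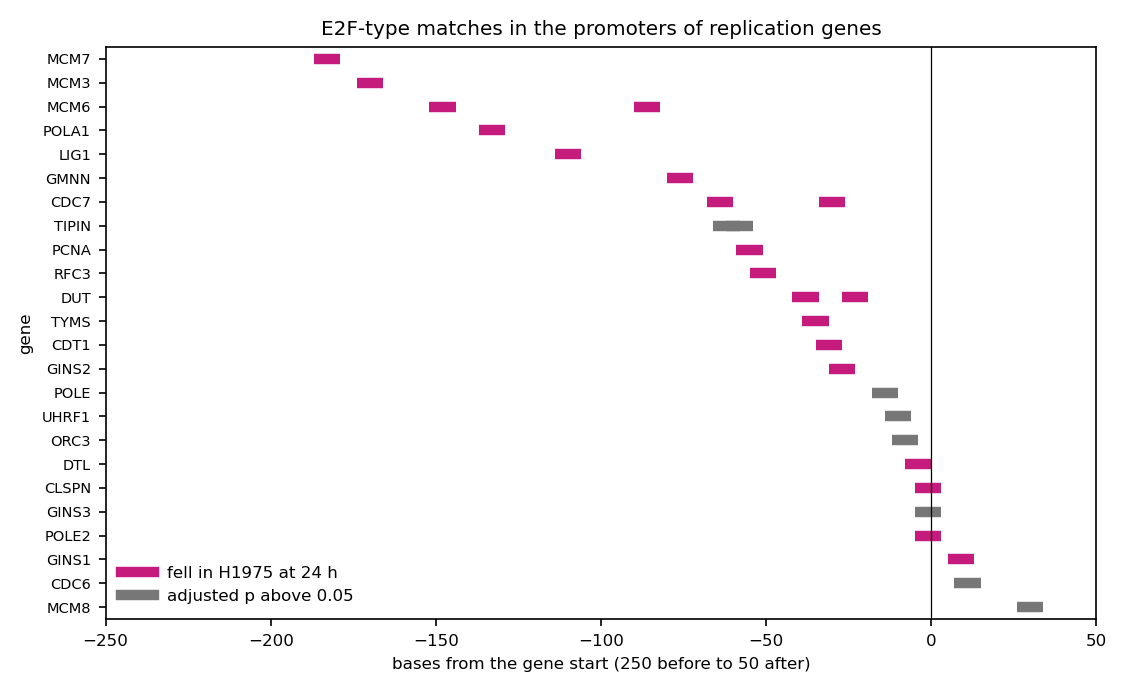
Position of each E2F-type match in the promoters of the 24 members that hold one, as distance from the gene start, with 250 bases before and 50 after it on the horizontal axis and genes on the vertical axis. Pink bars are genes that fell in H1975 at 24 h and gray bars those that did not pass; 17 of the 24 are pink.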

How the data were processed

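RNA of 24 samples was hybridized to one-color Agilent arrays. The deposited scanner files hold spot intensity that the authors read out with Feature Extraction, a program of Agilent that removes background and flags outlier spots and spots well above background. The authors also deposited processed log2 values, centered per probe on the median of the 24 arrays, which were used as an alternative.

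The processed signal was put on the log2 scale, and each array's 75th percentile over its 43118 non-control spots was subtracted. Repeat spots of a probe were averaged after removing flagged outliers. Tests used limma 3.58.1 (R 4.3.3) on the 23827 of 34127 probes detected, by at least a 0.5 share of their spots, on all 3 arrays of at least 1 group. A single model held all 8 groups and left 16 residual degrees of freedom. The study's methods name Westfall-Young adjustment, which 3 arrays against 3 cannot pass, so Benjamini-Hochberg adjustment over all probes was used. Groups and replicate numbers came from the sample labels. Comparisons were Pirfenidone minus PBS per line and time, their differences between lines and times, and lines and times within PBS.

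Members and lists were chosen with earlier results of these data known, and a few genes of the lists are not reported here. Values of every array are given for up to 3 members per role with the largest change among those that passed, and other members are given by counts or by their change. Tested on simulated data, with 200 of 23748 probes changed 2-fold, the steps recovered 57% in the H1975 comparison at 24 h with 5 false calls, 60% in A549 at 24 h with 9, 55% in A549 at 6 h with 3, and 54% in H1975 at 6 h with 3. The simulated noise was independent between probes and arrays, with no effect of run or slide, so these rates need not hold for the real arrays. Of 56 probe accessions 55 matched a RefSeq transcript of GRCh38.p14 with the same symbol. Python version 3.11.15 and pandas version 2.3.3 searched the promoters. Alternatives were normexp background correction (offset 50), quantile normalization, the authors' values, no filter or a stricter one, the replicate number, run or slide as a block, fits of the arrays compared, gene means, a 2-fold limit, Holm adjustment, and leaving out arrays or pairs. The number of arrays limits the precision.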

Additional observations from a re-analysis of the deposited data

How the results depend on the processing

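The 33 members that passed in H1975 at 24 h were lower under every setting run, while ORC4 (0.23, not passing) was at -0.04 with the mean of its probes. The count of 33 members passing there became 17 with normexp, 11 with a 2-fold limit, 0 with Holm adjustment, 0 with the arrays compared alone (47 at an unadjusted p under 0.05), 50 (49 of them lower, ORC4 higher) without the A549 run 1 pair of 24 h and with the run as a block, and, in settings chosen after seeing the data, 0 without both H1975 arrays of run 1 (36 at an unadjusted p under 0.05) and 2 without both of run 3. The members that differed between lines with PBS, 20 at 6 h and 18 at 24 h, became 3 and 3 with a 2-fold limit and 1 and 1 with Holm adjustment. The line difference at 24 h, with 0 members, gave 15 with the slide as a random block (correlation within a slide 0.45). The median in H1975 at 6 h moved from -0.11 to -0.19 with normexp. The causes were not tested. For the fits with 47 and 36 members at an unadjusted p under 0.05, the share of all genes at that p was not counted. The share of all genes that passed in H1975 at 24 h was not counted with normexp, Holm adjustment or the replicate block. It was also not counted with the arrays compared alone or with arrays left out. Leaving out single arrays gave 1 to 43 members in H1975 at 24 h, 0 to 2 for the line difference at 24 h, 14 to 24 and 17 to 21 for the lines with PBS at 6 h and 24 h, and medians of -0.17 to -0.019 in H1975 at 6 h and -0.12 to 0.20 in A549 at 24 h. Same-numbered arrays did not all deviate together (correlations from -0.68 to 0.72), so the numbers were not taken to pair the samples. Matched by run, correlations went from -0.10 to 0.82, and all those in H1975 were positive (0.46 to 0.82). The main fit had no block. Counts with the run as a block are given above for H1975 at 24 h. With the replicate block 38 members passed in H1975 at 24 h and 0 in the other drug comparisons, and the block could not be fitted for the differences between lines with PBS. In a simulation without run or slide effects, 57% of 2-fold changes were recovered. With 3 arrays a group, a member that did not pass is therefore not shown to be stable.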

Other observations

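Several members had a second probe, which was not used above. In H1975 at 24 h the second probe gave another call for UHRF1, which passed at -1.24 (limma adjusted p = 0.0253), and for MCM7 (-1.23, limma adjusted p = 0.054) and DUT (-0.48, limma adjusted p = 0.14), which did not pass. PRIM2 had 2 further probes, of which 1 passed (-0.62, limma adjusted p = 0.0411) and 1 did not (-1.10, limma adjusted p = 0.0679). The probes of ORC4 had opposite signs, 0.23 for the brighter and -0.32 for the other (limma adjusted p = 0.194 and 0.367). Second probes of MCM5 (-1.21), PCNA (-0.76) and RFC3 (-0.88) passed like the first.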
